A study of Mus musculus with 2 samples.

Results

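Tbp, Nono and Rpl13a are 3 genes of transcription, RNA handling and the ribosome that the array used here printed in 20 spots each, and they were chosen by the RefSeq accession of their probe (NM_013684.3, NM_023144.2 and NM_009438.4) in both array files. They are 3 of 112 genes named through an accession, and each is read by 1 probe, so their 60 spots per array stand for 3 of 59709 transcript probes. The samples were pooled RNA of left kidneys and pooled RNA of right kidneys of male mice, which the series description was read as 3 kidneys per pool, and each pool was hybridised to 1 Agilent 1-colour array. Strain, age and genotype of the mice are not given in the sources used here, and no treatment is named for either side. With 1 array per side no test between kidneys was possible, and the spread given below is that of spots on 1 array, which come from the same pool, labelling reaction and hybridisation.

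Tbp encodes the TATA-binding protein, which takes part in the start of transcription by all 3 nuclear RNA polymerases of animal cells. It is part of TFIID at genes read by RNA polymerase II, of SL1 at the ribosomal RNA genes and of TFIIIB at small RNA genes such as those of tRNA. Nono encodes a nuclear protein of the DBHS family that binds DNA and RNA, pairs with Sfpq or Pspc1, and builds paraspeckles on the long noncoding RNA Neat1. Rpl13a encodes a protein of the large ribosomal subunit, and its phosphorylated form is known to hold back translation of inflammatory mRNAs as part of the GAIT complex. All of them serve functions of nearly every cell, and Tbp and Rpl13a are common reference genes in quantitative PCR.

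All 3 genes were brighter than most transcript probes on both arrays. They kept the same order of signal, with Nono above Rpl13a and Rpl13a above Tbp. All 20 spots of each gene were well above background on either array. Signals are processed signals, that is spot brightness after background subtraction and detrending within the array, on a linear scale or as log2. Differences between genes are differences between probes, and a probe's signal depends on its sequence as well as on the amount of RNA. The order therefore describes signal, neither transcripts per cell nor amounts per transcript length.

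Tbp was the dimmest of the 3. Its 18 unflagged spots on the left array ran from 2541 to 2811 with a median of 2713, and its 18 on the right from 2483 to 2794 with a median of 2611.5. Spots of both sides overlapped over most of their range. The mean log2 signal of Tbp was 11.41 ± 0.04 (SD, 18 spots) on the left and 11.36 ± 0.04 (SD, 18 spots) on the right. A signal of that size exceeded 88.3% of the 59701 probes with an unflagged spot on each array. That put Tbp at place 7013 from the top on the left and 6992 on the right. Nearly all of these probes have no gene name here, and many were not above background, so the ranks of the 3 genes are not ranks among genes. Among the 35367 probes above background on both arrays, Tbp exceeded 80.2% on each.

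Rpl13a stood about 2 log2 units above Tbp. On the left its 18 unflagged spots lay between 11450.0 and 12558.5 with a median of 11776, and on the right its 20 spots lay between 10227 and 11618.5 with a median of 11061. Left spots were mostly above right spots, with an overlap at the lower end of the left and the upper end of the right. The mean log2 signal was 13.53 ± 0.03 (SD, 18 spots) on the left and 13.43 ± 0.05 (SD, 20 spots) on the right. It exceeded 94.5% of probes on each array, at places 3263 and 3299. One annotated processed copy, Rpl13a-ps1, is listed in the RefSeq gene table, and the gene holds 4 small nucleolar RNA genes (Snord32a, Snord33, Snord34 and Snord35a) and the microRNA gene Mir5121 within its span. Whether the Rpl13a probe also binds RNA of the copy was not tested.

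Nono was the brightest. Its 19 unflagged spots on the left ran from 14305 to 15764 with a median of 15260, and its 20 spots on the right from 13237 to 16673 with a median of 15914.5. The right spots reached both below and above all of the left ones. Its mean log2 signal was 13.89 ± 0.04 (SD, 19 spots) on the left and 13.91 ± 0.10 (SD, 20 spots) on the right. Nono exceeded 95.3% of probes on the left and 95.5% on the right, at places 2788 and 2669.

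**Figure D1:**
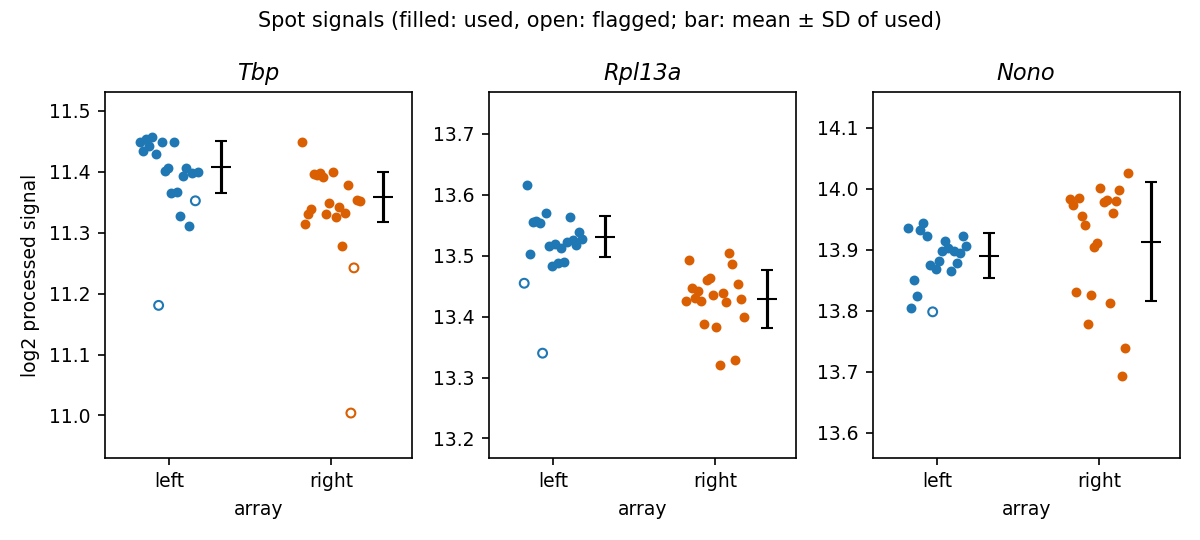
Log2 processed signal of each spot of Tbp, Rpl13a and Nono on the left and right arrays, spread sideways for clarity, with the y axis of every panel covering the same length of 0.6 log2 units. Filled points were used, open points carry an outlier flag, and bars give mean ± SD of the used spots. Of the used spots, those of Nono on the right are the most scattered.

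Among unflagged spots, none of one gene reached the signal of another on the same array. The dimmest unflagged Nono spot was still 1.14-fold brighter than the brightest Rpl13a spot on each array. The mean gap of Nono over Rpl13a was 0.36 ± 0.05 log2 (1.28-fold) on the left and 0.48 ± 0.11 (1.40-fold) on the right, with the combined SD of both genes' spots. Rpl13a exceeded Tbp by 2.12 ± 0.05 (4.36-fold) on the left and 2.07 ± 0.06 (4.20-fold) on the right. Among the same spots, the dimmest of Rpl13a was 4.07-fold and 3.66-fold brighter than the brightest of Tbp on the left and right arrays. Nono exceeded Tbp by 2.48 ± 0.06 (5.59-fold) on the left and 2.55 ± 0.11 (5.87-fold) on the right. These gaps kept their sign, and moved by less than 1 combined SD, under the 4 alternatives run for them.

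**Figure D2:**
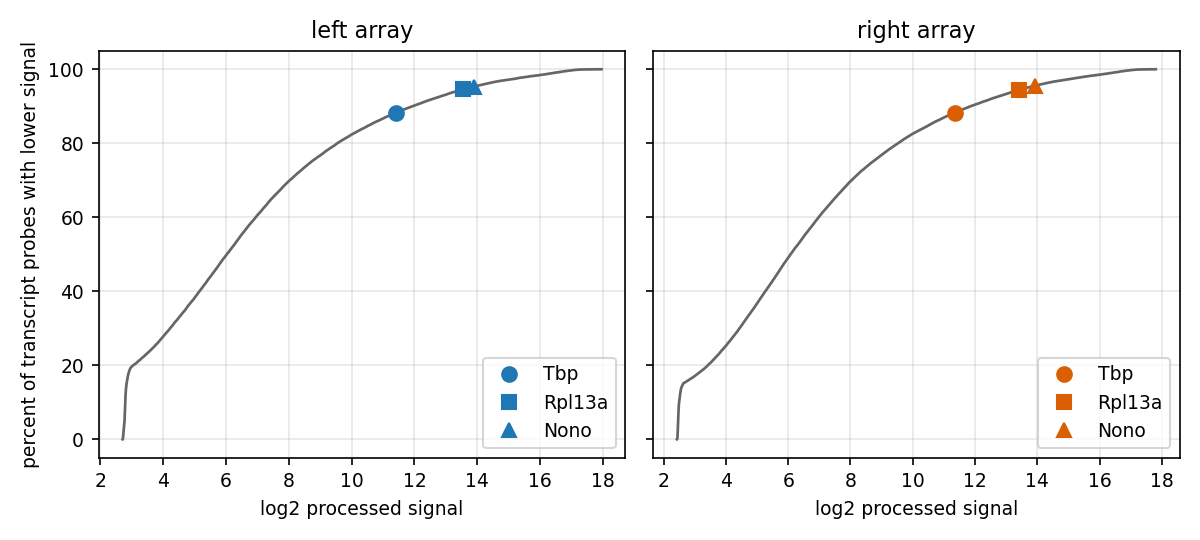
Percent of transcript probes with a lower signal (y axis) against log2 processed signal (x axis), with a grey line for all 59701 probes of an array and symbols for the 3 genes. Tbp sits at 88.3% on both arrays, Rpl13a at 94.5% on both, and Nono at 95.3% and 95.5%.

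Set among the other genes with replicate spots, the 3 genes lay in the lower part of the brightness range. Of 15 such genes, 14 were above background on the left as well as the right array, and Nono was the ninth, Rpl13a the tenth and Tbp the thirteenth brightest of these on both sides. Nearest to Nono over the scaled log2 signals of the 2 arrays was Rpl13a, at a distance of 0.60, followed by Tfrc, the transferrin receptor, at 0.98. Nearest to Rpl13a after Nono was Gk, glycerol kinase, at 0.86. Tbp had no close neighbour, with G6pd2, a glucose-6-phosphate dehydrogenase, at 1.40 and Gusb, the lysosomal beta-glucuronidase, at 1.65. With 2 arrays such a distance is a likeness of brightness only.

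Other genes of the same pathways could hardly be followed, since 59593 probes have no gene name here. Of 28 general transcription factor genes and 8 paraspeckle and DBHS genes listed for this work, 0 had a named probe, and of 104 ribosomal subunit genes Rpl13a was the only one that had. Outside those lists and chosen after the names and values were seen, Taf1a had a named probe with 1 spot. Taf1a encodes a subunit of SL1, the complex in which Tbp serves RNA polymerase I. Taf1a gave a signal of 2636 (left) and 2459 (right), close in size to that of Tbp, and its log2 difference was 0.10, within the robust SD of 0.18 of probes of similar brightness. Of 21 markers of kidney cell types and of neighbouring tissues, 0 had a named probe, so the tissue label was not checked against markers.

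Unflagged spots of a gene agreed closely on each array, except those of Nono on the right. Spots that the image analysis software flagged as outliers among their probe's spots were left out, which lowered the SD wherever a gene had such spots on an array. With them kept, the SD of log2 signal on the right was 0.091 for Tbp and 0.098 for Nono. The coefficient of variation of the unflagged spots was 2.96% and 2.82% for Tbp on the left and right, 2.36% and 3.25% for Rpl13a, and 2.55% and 6.56% for Nono. The error that the image analysis software attached to these spots was 10% of the signal in the median for every gene and array. A value so constant does not measure the spread of these spots. None of the 3 genes came near the top of the scale, as the brightest median pixel signal, 16725.5 for Nono on the right, compares with a saturation value of 778105. Median pixel signals were 63.8 times the local background for Tbp on the left and 376 times for Nono on the right, the lowest and highest of these ratios.

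Of the 120 spots of the 3 genes over both arrays, 7 carried an outlier flag (5 left, 2 right). None was flagged for uneven pixels, and all 7 as outliers among the spots of the same probe. The flag did not always follow the processed signal. A flagged Tbp spot on the left, at 2614, lay within the range of the unflagged ones, 2541 to 2811. Each of the 7 was dimmer than the mean of the unflagged spots of its gene and array. The farthest was a Tbp spot on the right, at 2054, which lay 0.35 log2 below that mean (-0.35), and next came a Tbp spot on the left at 2321 (-0.23) and an Rpl13a spot on the left at 10368 (-0.19). In each of these cases the spot at the same place on the other array was unflagged. With flagged spots kept, the SD of Tbp went from 0.043 to 0.066 on the left and from 0.041 to 0.091 on the right, and that of Rpl13a on the left from 0.034 to 0.055.

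Among unflagged spots, Nono had the widest spread of the 14 genes above background on the right array, with an SD of 0.098 against a median of 0.052. On the left it had a middling place, with 0.037 against a median of 0.038. On the right its 6 dimmest spots, at 13237 to 14567, were set off from the other 14, which began at 15329. The left partners of those 6 lay between 13.85 and 13.92 log2, within the range of the other left spots. Across the 19 pairs of unflagged spots the left and right log2 signals of Nono had a Pearson's r of -0.14, against 0.39 for Tbp over 16 pairs and 0.43 for Rpl13a over 18. Spearman's rho was -0.10, 0.12 and 0.35 in this order. Over the 14 genes r ran from -0.14 to 0.52 with a median of 0.30, and that of Hsp90ab1 (-0.012) and Gusb (0.075) was also near 0. Spots of a pair share the place on the grid and the printed probe, and r is given as a description. The robust SD, from the median absolute deviation, was 0.061 for Nono on the right.

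Where the dim Nono spots lay was looked at after their values were known. Between grid columns 67 and 99, the middle of 5 column ranges, 5 of 6 Nono spots on the right were below the gene's mean, by 0.11 on average over the 6 (-0.11 ± 0.10, SD). The 52 spots of the other 13 genes in those columns on the right averaged 0.0050 ± 0.055 from their own gene means. On the left the same 6 Nono spots averaged 0.0034 ± 0.028. Nono spots between columns 100 and 132 on the right were all 5 above the mean, by 0.078 ± 0.024. Tbp and Rpl13a, with 6 and 4 spots in the middle columns on the right, stood there at 0.025 ± 0.043 and -0.014 ± 0.072. Signal also varied along the grid rows. Over spots unflagged on both arrays, Pearson's r of left log2 signal with row was -0.64 for Tbp, -0.47 for Rpl13a and 0.22 for Nono. On the right it was -0.36, -0.30 and -0.21. On the left Tbp averaged 11.44 ± 0.02 (SD, 8 spots) up to the middle row and 11.39 ± 0.04 (SD, 8 spots) beyond it.

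**Figure D3:**
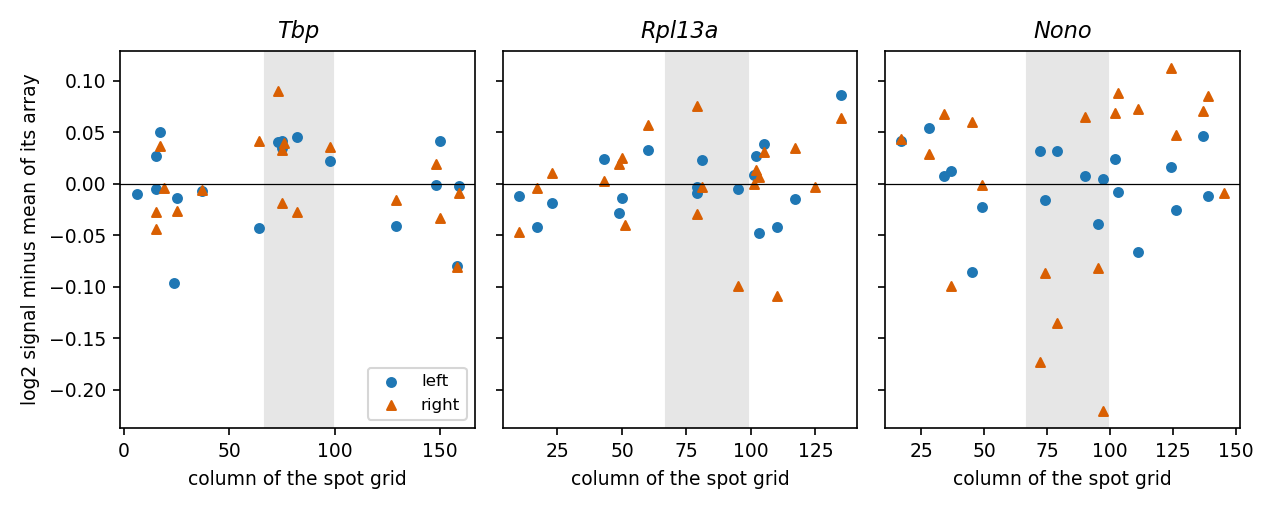
Deviation of each unflagged spot from the mean of its gene and array (y axis, log2) against its column on the spot grid (x axis), with circles for the left and triangles for the right array and grid columns 67 to 99 shaded. In the shaded columns 5 of 6 right spots of Nono lie below 0, while those of Tbp average 0.025.

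Between the left and right kidney pools, each of the 3 genes differed by less than 1.1-fold with 75th percentile scaling. With median scaling the log2 difference of Rpl13a was larger, at 0.14. None of the 3 was 2-fold or 1.5-fold apart, where 1.08% and 5.11% of the 35367 probes above background on both arrays were. Nearly all of those probes have 1 spot per array, while the values of the 3 genes are means over spot pairs. Differences are left minus right in log2 signal after each array's 75th percentile was subtracted, over spot pairs unflagged on both arrays. In pooled tissue, fewer cells of a type and less RNA per cell cannot be told apart. The left and right arrays were read in 1 scan from different places on the slide, so side and place cannot be told apart either.

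Rpl13a was 1.07-fold higher on the left, with a difference of 0.096 ± 0.046 (SD, 18 spot pairs). Its pairs ran from 0.014 to 0.19, all 18 higher on the left, and leaving out any single pair kept the mean between 0.090 and 0.10. Every pair was also higher on the left in 5 of the 11 other replicated genes above background (Actb, G6pd2, Gusb, Hsp90ab1 and Ppia). Under quantile and cyclic loess normalization it was 0.028 and 0.034, less than its pair SD. Of all probes above background, 52.5% were higher on the left at any size, and the 708 other probes within 0.25 log2 of the brightness of Rpl13a had a median difference of 0.049 with a robust SD of 0.15. Among those 708, 53.1% lay at least as far from 0 as Rpl13a did. Each of these probes has 1 spot per array, while the Rpl13a value is a mean over 18 pairs, so the comparison is unlike. The same holds for the probes of similar brightness set beside Tbp and Nono below.

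Tbp stood at 0.054 ± 0.044 (SD, 16 spot pairs), or 1.04-fold. Its pairs ran from -0.039 to 0.12, with 14 of 16 higher on the left. The mean lay close to the median of 0.061 of 1048 other probes of similar brightness, whose robust SD was 0.18, and 76.0% of them were at least as far from 0. It stood at 4.4e-05 under cyclic loess and turned to -0.0067 under quantile normalization. Tbp therefore had no side that held across scalings.

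Nono stood at -0.027 ± 0.11 (SD, 19 spot pairs), a difference well inside its own spread. Its pairs ran from -0.17 to 0.20, with 13 of 19 higher on the right, and the 6 pairs higher on the left are those of the 6 dim right spots. The median pair was at -0.051. Of 608 other probes of similar brightness, with a median of 0.059 and a robust SD of 0.14, 85.9% were at least as far from 0 as Nono. Median scaling turned its sign, to 0.022. The SD over its unflagged pairs was the widest among the 14 replicated genes above background, where the median was 0.056. Those of Tbp (0.044) and Rpl13a (0.046) were the smallest but for 2 other genes. With flagged spots kept, the pair SDs were 0.097 for Tbp, 0.057 for Rpl13a and 0.11 for Nono, so the low SD of Tbp depended on the flags. Places among the 14 genes with flagged spots kept are not given here.

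**Figure D4:**
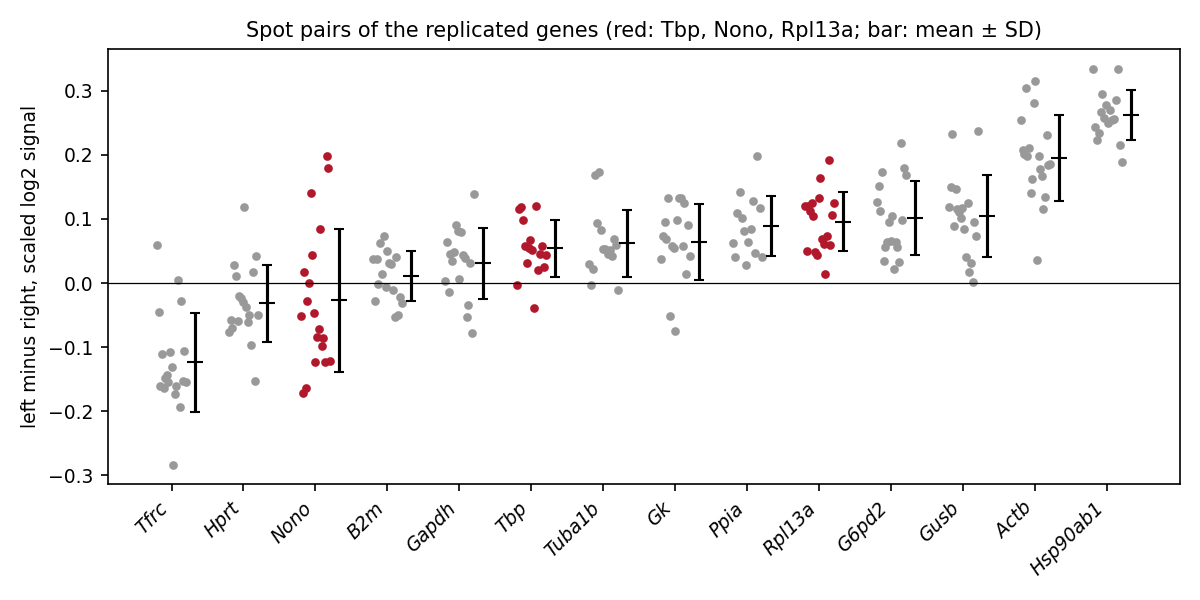
Left minus right difference in scaled log2 signal (y axis) for each spot pair, unflagged on both arrays, of the 14 replicated genes above background on both arrays. Genes are ordered by mean, with the 3 genes in red and bars for mean ± SD. Nono averages -0.027 with the widest spread, while all 18 pairs of Rpl13a lie above 0, as do all pairs of 5 other genes.

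Scaling cancels when one gene is set against another on the same arrays. The 3 genes then differed by about the spread of single spot pairs or less. Nono relative to Rpl13a was lower on the left by 0.12 log2 (-0.12, 1.09-fold), about the combined SD of 0.12 of their pairs. Nono relative to Tbp was at -0.081 (combined SD 0.12), and Rpl13a relative to Tbp at 0.041 (combined SD 0.064), both inside the spread of single pairs. The combined standard errors of the means were 0.028, 0.028 and 0.016 in this order, smaller than the differences. These errors take spot pairs as independent and cover spot noise only, not arrays or animals. The order of the left minus right differences, Rpl13a first, then Tbp, then Nono, was the same under the 7 alternatives that could change it, which leaves out median scaling and no scaling, as these shift all genes alike. Nono relative to Rpl13a lay between -0.16 and -0.11 in them. With 1 array per side, unequal change of the 3 genes between the kidneys is not shown.

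The balance of the 2-fold probes between the sides depended on how the arrays were scaled. With the 75th percentile, 190 probes were higher on the left and 192 on the other side, so the left held 49.7% of them. That share was 56.6% with median scaling, 54.1% with quantile and 58.0% with cyclic loess normalization. Scaling to 1 gene subtracts that gene's own difference from every probe, so the share moves against it by construction. Scaled in this way to Rpl13a, chosen after seeing the data, the counts were 151 and 269 (36.0% on the left), to Tbp 169 and 214, and to Nono 206 and 180.

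A single spot per array, which is all that 59694 of the probes have, would have given a range of values for the same gene, widest for Nono. For Nono the most extreme unflagged pairs were 1.29-fold apart, for Rpl13a 1.13-fold and for Tbp 1.12-fold. For each gene the range of single pairs was larger than its mean difference between the kidneys, though every unflagged Rpl13a pair was higher on the left. The differences of neighbouring probes were set beside those of the spots. For each spot pair, the median difference of the nearest 18 probes above background was taken, and across pairs it had a Pearson's r with the pair's own difference of 0.54 for Nono (19 pairs), 0.52 for Rpl13a (18 pairs) and 0.15 for Tbp (16 pairs). These neighbour medians ran from -0.16 to 0.19 around Nono spots, with a middle value of 0.022 where the median Nono pair was -0.051. Around Rpl13a spots they ran from -0.15 to 0.20 with a middle value of -0.014, though all 18 unflagged Rpl13a pairs were above 0. They share place and array with the spots. Subtracting them left Nono with an SD of 0.10 and raised the SD of Rpl13a to 0.083 and that of Tbp to 0.091. The corrected means were -0.060 for Nono, 0.087 for Rpl13a and 0.015 for Tbp.

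**Figure D5:**
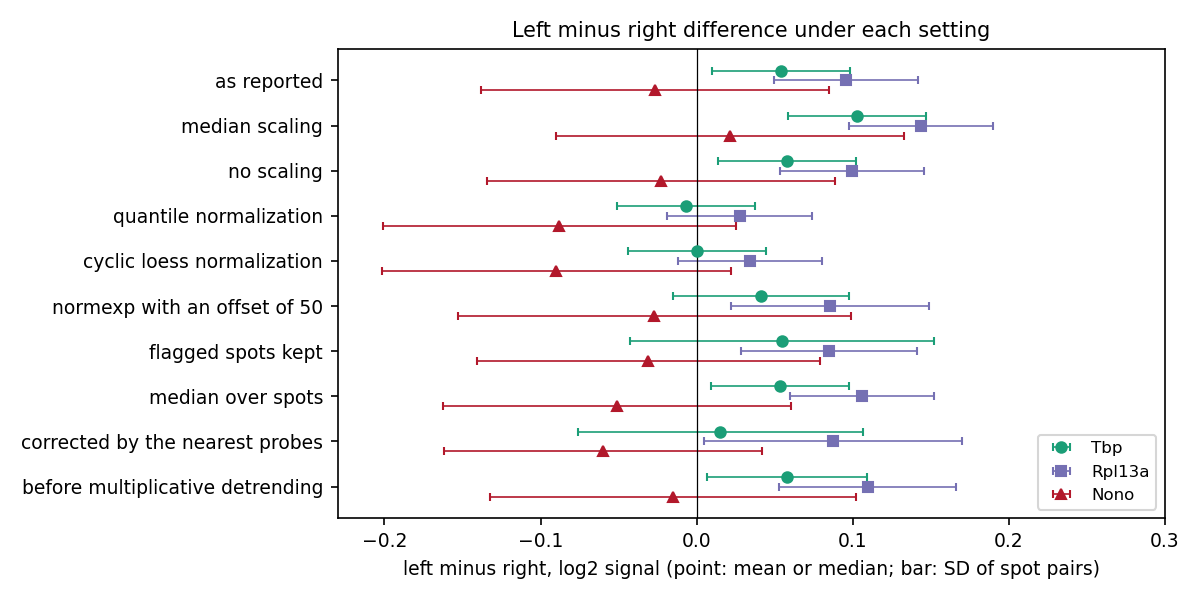
Left minus right log2 difference of Tbp, Rpl13a and Nono (x axis) under the reported setting and 9 alternatives (y axis), with bars for the SD over spot pairs. Rpl13a stays above 0 in each, between 0.028 and 0.14, while Tbp and Nono each cross 0.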

How the data were processed

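The intensities deposited for each array come from Agilent Feature Extraction 11.0.1.1, per the file headers, as 1 fluorescence channel with background subtraction and detrending within the array and no normalization between arrays. Ribosomal RNA had been depleted and the rest amplified with random primers along whole transcripts, per the labels' protocols. The label field names biotin, though the headers describe fluorescence. The value table the authors deposited equals the processed intensity in all 62513 spots per array (relative tolerance 1e-05), with column medians of 58.6 (left) and 61.0 (right), linear and not centred.

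Control spots, spots named as negatives and flagged spots were left out, and log2 intensities were averaged over spots of a probe. Levels are log2 processed signals without scaling. For differences and distances the log2 of each array's 75th percentile (436.5 left, 435.4 right) was subtracted. Of 123 probes with a RefSeq accession, 116 matched the GRCm38.p6 gene table, without versions (that of Rpl13a is newer there), used for names alone because the grid of the array is on another build. Named are the 3 genes, all other genes with at least 10 spots, and the 2 of these nearest to each in signal. The 3 genes and the lists were chosen with earlier results of these data known. No p-value was computed.

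Alternatives were median scaling, no scaling, quantile and cyclic loess normalization, normexp (offset 50, on the median spot signal and local background, in place of the mean spot signal), raw median signals, flagged spots kept, medians over spots, robust SDs, correction by the nearest 18 probes and, added after seeing the data, the signal before multiplicative detrending and scaling to each of the 3 genes. The tools were limma 3.58.1 in R 4.3.3, and scipy 1.17.1, numpy 2.4.6, matplotlib 3.10.9 and pandas 2.3.3 in Python 3.11.15.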

Additional observations from a re-analysis of the deposited data

How the results depend on the processing

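With 1 array per side no value has a biological error, and the SDs cover spot noise alone. A difference is counted as moved if it shifted by more than 1 SD of its spot pairs, and an SD or a count if it changed over 1.5 times. The left minus right difference of Rpl13a moved to 0.14 with median scaling, 0.028 with quantile and 0.034 with cyclic loess normalization. That of Tbp moved to 0.10 with median scaling and 4.4e-05 with cyclic loess, and reversed to -0.0067 with quantile normalization. That of Nono reversed to 0.022 with median scaling. These settings differ from the reported one only in how the arrays are scaled or normalized. The other 20 values of differences, of 27, kept their sign and stayed within 1 SD, and so did the 24 values of gaps between genes.

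Among probes above background on both arrays the percentiles became, on the left and right, 80.2 and 80.2 for Tbp, 90.8 and 90.7 for Rpl13a and 92.1 and 92.5 for Nono, as dim probes leave the comparison. With flagged spots kept the SD of Tbp was 0.066 on the left, 0.091 on the right and 0.097 over pairs, and that of Rpl13a 0.055 on the left. On the left, normexp gave 0.070 for Tbp and 0.054 for Rpl13a, and the signal before multiplicative detrending 0.068 for Tbp, where the cause was not tested. The robust SD of Nono on the right was 0.061. The count of 2-fold probes, 382, became 102 with normexp, 5270 (2056 higher on the left, 3214 on the right) over 59701 probes with no background filter and 1808 at 1.5-fold. Its 7 other values stayed within 1.5 times. No paired analysis was possible because each side has 1 array.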
